A study of Mus musculus with 3 samples.

Results

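The Sm and LSm proteins are small ring-forming proteins that hold spliceosomal RNAs, and their mRNAs were examined in mouse oocytes of the ICR strain matured in culture to metaphase II. Members were the table rows whose symbol is Snrpb, Snrpn, Snrpd1, Snrpd2, Snrpd3, Snrpe, Snrpf or Snrpg, or Lsm followed only by digits. The rule found 13 of the 9126 listed transcripts, which are 12 RefSeq accessions of 9 genes, 5 of the 8 Sm genes and 4 of the 11 LSm genes in the RefSeq annotation. The other 10 genes (Snrpb, Snrpd2, Snrpd3, Lsm1, Lsm4, Lsm5, Lsm6, Lsm8, Lsm10 and Lsm12) had no row and were not analysed here.

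There were 3 libraries, each a pool of 20 oocytes from 4 mice: aged oocytes matured with secretome from mesenchymal stem cells of human umbilical cord, used 1 to 1 in the medium (aged-sec), aged oocytes without it, and young oocytes. All oocytes came from antral follicles as germinal vesicle oocytes, and maturation in M16 medium took 16 to 18 h. The sources used here give no ages in weeks, and the treatment field names the secretome for all 3 samples, so the groups follow the sample titles. Each group had 1 library, so no value below has a replicate error, no test was possible, and every difference is one between libraries. Abundance is in TPM, a share of the library's transcripts that is scaled per length and out of 1000000. TPM gives a share of the mRNA, so a larger share of one mRNA and a smaller amount of the others cannot be told apart. Sequencing depth is unknown.

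The table holds no row with an aged over young ratio under 1.2, the lowest that was deposited. The listed transcripts, and with them the members, were thus selected on the aged over young TPM ratio, so aged values exceed young ones in every row and that direction is described here without weight. Just inside that limit was Snrpd1, with an aged over young ratio of 1.21 in the authors' deposited table, and members outside it were not analysed. The aged library is also the lower term of the aged-sec over aged ratio, so both comparisons share it. Selection for a high aged value can by itself lower the aged-sec over aged ratio of listed rows. The shares and medians over all listed transcripts given below are therefore not a neutral baseline, and the size of this effect was not tested. Of the oocyte markers, 3 of 10 were listed (Bmp15, Zp2 and Gdf9), with Bmp15, an oocyte growth factor, at 799 TPM in aged-sec, 817 TPM in aged and 585 TPM in young oocytes. Zp2, a zona pellucida protein gene, and Gdf9, another growth factor gene, were each listed only as a predicted RefSeq variant. The Zp2 variant stood at 20.5 TPM in aged-sec, 39.3 TPM in aged and 20.5 TPM in young oocytes. The Gdf9 variant stood at 4.46 TPM in aged-sec, 6.81 TPM in aged and 4.36 TPM in young oocytes. The aged-sec values of these variants were near the young ones, while Bmp15 was near its aged value. Other mRNAs of Zp2 and Gdf9 had no row, so these values do not stand for the whole genes. Cumulus and granulosa markers were listed for 2 of 10 genes (Hsd3b1 and Fshr), summing to 1.11 TPM in aged-sec, 1.74 TPM in aged and 0.07 TPM in young oocytes. Theca and stroma markers were listed for 3 of 6 genes, summing to 3.16 TPM in aged-sec, 4.33 TPM in aged and 2.33 TPM in young oocytes, and blood markers for 0 of 6. Whether the unlisted markers were present cannot be read from these rows, and the part of such cells in the results was not tested.

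In the cytoplasm, the Sm proteins B or N, D1, D2, D3, E, F and G close into a ring on the U1, U2, U4 and U5 small nuclear RNAs, with the survival motor neuron complex as the loading machine. E, F and G form a subcomplex before they join the ring. The related LSm proteins form a nuclear ring on U6 RNA and a cytoplasmic ring, with LSm1 in place of LSm8, that takes part in decapping and decay of mRNA. Oocytes at metaphase II are transcriptionally silent and live on stored mRNA, part of which is translated and degraded during maturation.

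The promoters of the genes for E, F and G are shown because these genes gave some of the most abundant listed mRNAs and stood higher in aged-sec than in aged oocytes. Snrpd1 did so too, but it was not among the genes matched to a promoter and is not shown. The sequences are from RefSeq on GRCm38.p6, from 250 bases before to 50 bases after the annotated start, 5′ to 3′ on the gene's strand. Capitals mark CCGGAAG, a sequence found in binding sites of the ETS factor family, and CCAAT, the box bound by NF-Y. Each was searched on both strands (CTTCCGG and ATTGG).
Snrpe chr1:133610231-133610530 (minus strand): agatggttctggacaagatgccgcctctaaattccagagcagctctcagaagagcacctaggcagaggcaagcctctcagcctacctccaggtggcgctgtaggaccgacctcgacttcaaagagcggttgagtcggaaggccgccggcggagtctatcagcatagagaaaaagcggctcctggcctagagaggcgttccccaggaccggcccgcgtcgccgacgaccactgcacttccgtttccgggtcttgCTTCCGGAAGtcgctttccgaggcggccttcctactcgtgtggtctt
Snrpg chr6:86371290-86371589 (plus strand): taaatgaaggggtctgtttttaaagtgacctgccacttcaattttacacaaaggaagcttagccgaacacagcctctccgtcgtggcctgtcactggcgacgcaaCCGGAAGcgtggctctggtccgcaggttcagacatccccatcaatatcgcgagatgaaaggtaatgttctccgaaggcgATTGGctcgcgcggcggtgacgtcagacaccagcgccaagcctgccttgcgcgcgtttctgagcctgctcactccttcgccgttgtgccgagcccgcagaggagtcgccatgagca
Snrpf chr10:93589609-93589908 (minus strand): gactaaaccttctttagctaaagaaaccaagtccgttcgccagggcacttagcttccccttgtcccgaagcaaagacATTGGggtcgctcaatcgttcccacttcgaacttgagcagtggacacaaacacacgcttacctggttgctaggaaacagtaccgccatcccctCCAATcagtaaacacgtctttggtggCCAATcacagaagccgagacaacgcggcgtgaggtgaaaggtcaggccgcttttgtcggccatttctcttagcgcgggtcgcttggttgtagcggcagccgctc
The Snrpe promoter holds CCGGAAG on both strands, overlapping, within the first bases after the start, starting at positions 4 and 7 counted from 1 at the start. The Snrpg promoter holds CCGGAAG 145 bases and ATTGG 66 bases before the start. The Snrpf promoter holds CCAAT 80 and 54 bases and ATTGG 173 bases before it, and no CCGGAAG on either strand. Shorter or other forms of ETS sites were not searched. Among all 32851 promoters, 8.86% held CCGGAAG in either direction, against 16.3% of the 6403 promoters of genes with a listed row, and 2 of the 13 promoters of 8 matched Sm and LSm genes. CCAAT in either direction was held by 4 of these 13, by 38.0% of promoters of listed genes and by 37.4% of all. TATAAA, searched with TTTATA, was held by 1 of the 13, by 8.0% of promoters of listed genes and by 13.6% of all. These motifs were chosen after the sequences were seen, and a match is a string of letters, not a shown binding site.

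The core Sm mRNAs were among the most abundant listed in these oocytes, and the 4 most abundant of them each had their highest value in the aged-sec library. Snrpg, the gene for Sm G, stood at 6013 TPM in aged-sec, 4931 TPM in aged and 3802 TPM in young oocytes. It ranked 7 among the 9126 listed transcripts in aged-sec, 8 in aged and 10 in young oocytes. Snrpe, the gene for Sm E and a binding partner of F and G, stood at 4615 TPM in aged-sec, 4309 TPM in aged and 3083 TPM in young oocytes. Both mRNAs were higher in aged-sec than in aged oocytes, and Snrpg by the larger ratio, 1.22 against 1.07 for Snrpe.

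Snrpd1, the gene for Sm D1, which pairs with D2 in the ring, stood at 1486 TPM in aged-sec, 1296 TPM in aged and 1075 TPM in young oocytes. Snrpf, the gene for Sm F, stood at 918 TPM in aged-sec, 775 TPM in aged and 572 TPM in young oocytes. Their aged-sec over aged ratios were 1.15 and 1.18, and their aged over young ratios 1.21 and 1.35. The order of levels was G, E, D1 and F in all 3 libraries, although the proteins enter the ring in equal numbers. With 1 library per group, whether neighbours in this order differ beyond the spread of repeated libraries cannot be said.

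Together the 4 mRNAs made up 1.30% of all TPM in aged-sec, 1.13% in aged and 0.853% in young oocytes. The sum was 13032 TPM in aged-sec, 11311 TPM in aged and 8532 TPM in young oocytes, a ratio of 1.15 for aged-sec over aged and 1.33 for aged over young. Snrpg and Snrpe held 81.6% of this sum in aged-sec, 81.7% in aged and 80.7% in young oocytes. The proportion of Snrpg to Snrpe was 1.30 in aged-sec, 1.14 in aged and 1.23 in young oocytes, and that of Snrpe to Snrpf was 5.03 in aged-sec, 5.56 in aged and 5.39 in young oocytes. Snrpg to Snrpd1 was 4.05 in aged-sec, 3.81 in aged and 3.54 in young oocytes, and Snrpd1 to Snrpf was 1.62 in aged-sec, 1.67 in aged and 1.88 in young oocytes. The joint share of Snrpg and Snrpe was thus similar in the 3 libraries, while proportions between single mRNAs differed, that of Snrpg to Snrpe between aged-sec and aged by about as much as the sum.

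**Figure D1:**
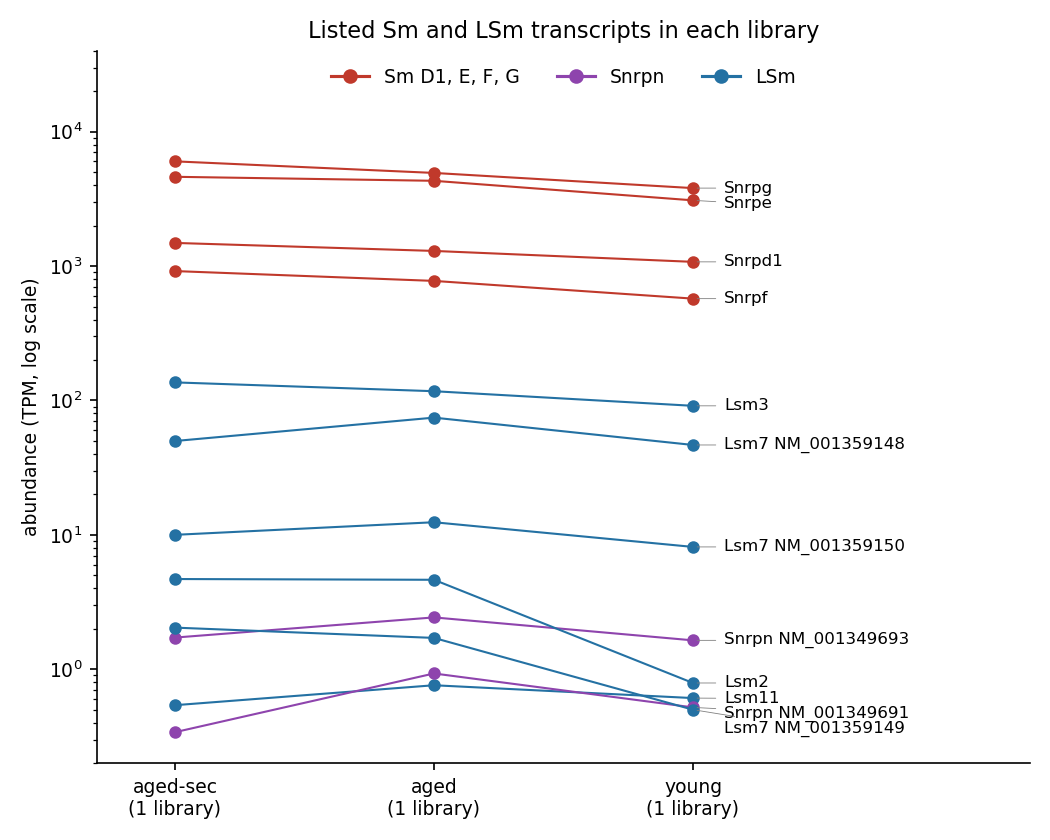
Abundance in TPM on a log axis for each of the 12 Sm and LSm accessions in the aged-sec, aged and young libraries, 1 point per library with lines joining the same transcript; there are no replicates and no error bars. The 4 Sm mRNAs in red lie above 500 TPM in every library and are highest in aged-sec, while the 2 more abundant Lsm7 variants, both Snrpn variants and Lsm11 are highest in aged oocytes.

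Snrpn, the remaining Sm gene in the table, is a paternally expressed, imprinted relative of Snrpb known mainly from brain. Of its 9 annotated mRNAs 2 were listed, both at low level. NM_001349693 stood at 1.72 TPM in aged-sec, 2.43 TPM in aged and 1.64 TPM in young oocytes. NM_001349691 stood at 0.34 TPM in aged-sec, 0.93 TPM in aged and 0.52 TPM in young oocytes. Both variants had aged-sec values below their aged ones, and the second was also below its young value, but at these levels a ratio rests on a small signal.

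The LSm mRNAs were less abundant than the 4 Sm mRNAs and did not all lie on the same side of aged. Lsm3, the gene for a subunit of both LSm rings, stood at 136 TPM in aged-sec, 117 TPM in aged and 91.2 TPM in young oocytes, an aged-sec over aged ratio of 1.16. Lsm7, another subunit of both rings, had 3 of its 4 annotated mRNAs in the table. Its leading variant NM_001359148 stood at 49.9 TPM in aged-sec, 74.5 TPM in aged and 46.6 TPM in young oocytes. This variant was the reverse of Lsm3 in the aged-sec library, with a ratio of 0.670, and came close to its young value.

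The other listed Lsm7 variants were smaller. NM_001359150 stood at 10 TPM in aged-sec, 12.4 TPM in aged and 8.13 TPM in young oocytes, and NM_001359149 at 2.04 TPM in aged-sec, 1.71 TPM in aged and 0.5 TPM in young oocytes. Summed, the listed Lsm7 mRNAs stood at 61.9 TPM in aged-sec, 88.6 TPM in aged and 55.3 TPM in young oocytes. The remaining annotated Lsm7 mRNA was not analysed here, and how reads common to several variants were assigned is unknown, so the sum does not stand for the whole gene.

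Lsm2, also a subunit of both rings, had 1 of its 4 annotated mRNAs in the table, entered as 2 annotated copies with equal values. Each copy stood at 4.69 TPM in aged-sec, 4.63 TPM in aged and 0.79 TPM in young oocytes. Its aged over young ratio of 5.86 was the highest of the members, but all its values lay under 10 TPM and the ratio rests on a small signal. The aged-sec and aged values of Lsm2 were nearly equal. Lsm11, a subunit of the U7 particle that processes histone mRNA, stood at 0.54 TPM in aged-sec, 0.76 TPM in aged and 0.61 TPM in young oocytes, under 1 TPM in every library.

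Setting aged-sec beside aged oocytes asks whether secretome during maturation goes with other levels of these mRNAs. A size rule served to describe large differences, namely a 2-fold ratio or more after adding 0.5 TPM to both values, where the larger value was 10 TPM or more. Of the 7 members with enough TPM 0 met it, while 0.223% of the 2239 listed transcripts with enough TPM were higher and 2.95% lower. In the comparison of aged with young oocytes the same rule was met by 0 of 7 members, against 18.2% of 2186 listed transcripts that were higher and 0% lower. Aged over young is the ratio that bounds the table, and nothing is read from the difference. Between aged-sec and young oocytes, which share both libraries with the other comparisons, the rule was also met by 0 of 7, against 17.1% of 1999 that were higher and 0.45% lower.

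Without a minimum size, 8 of the 13 members were higher in aged-sec than in aged oocytes and 5 were lower, where 28.4% of all listed transcripts were higher. The 8 count the second copy of Lsm2. The median aged-sec over aged ratio of the members was 1.01, against 0.818 over all listed transcripts, and their median aged over young ratio was 1.48, against 1.71. On the log2 scale with the added 0.5 TPM the median for aged-sec over aged was 0.02 in the members and -0.19 over all listed transcripts. For aged over young it was 0.48 in both over all levels. At 10 TPM or more in aged oocytes the aged over young median was 0.44 in the members against 0.56 over listed transcripts. It was 0.38 against 0.49 at 100 TPM or more, and 0.41 against 0.40 at 500 TPM or more. Whether the members' aged over young median was the lower one thus depended on the level and on the added TPM. The members divided by level, and the counts depend on where the cut is set. At 10 TPM or more in aged oocytes, 5 of 7 were higher in aged-sec, where 26.4% of the 2186 listed transcripts were. At 500 TPM or more, 4 of 4 were higher, where 53.7% of the 82 listed transcripts were. At 100 TPM or more in aged oocytes, 5 of 5 (Snrpg, Snrpe, Snrpd1, Snrpf and Lsm3) were higher in aged-sec, with ratios of 1.07 to 1.22, where 32.7% of the 367 listed transcripts at that level were higher. Under 100 TPM, 3 of 8 rows were higher in aged-sec, 2 of them the copies of Lsm2, and 5 were lower, which is near the 28.2% higher among all listed transcripts at that level. Against young oocytes, 11 of the 13 members were higher in aged-sec, where 75.8% of all listed transcripts were, and 5 of 5 at 100 TPM or more, where 91% were.

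Level moves with this ratio across the table, so the members were also set beside transcripts of like abundance. For aged-sec over aged, the median was 0.925 among the 367 listed transcripts at 100 TPM or more in aged oocytes and 1.02 among the 82 at 500 TPM or more. Among those 82, Snrpg ranked 6 from the highest ratio, Snrpf 8, Snrpd1 11 and Snrpe 29. At 1000 TPM or more, 22 of 40 transcripts, or 55%, were higher in aged-sec, among them the 3 members at that level. The part of abundance in the members' ratios was not tested.

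**Figure D2:**
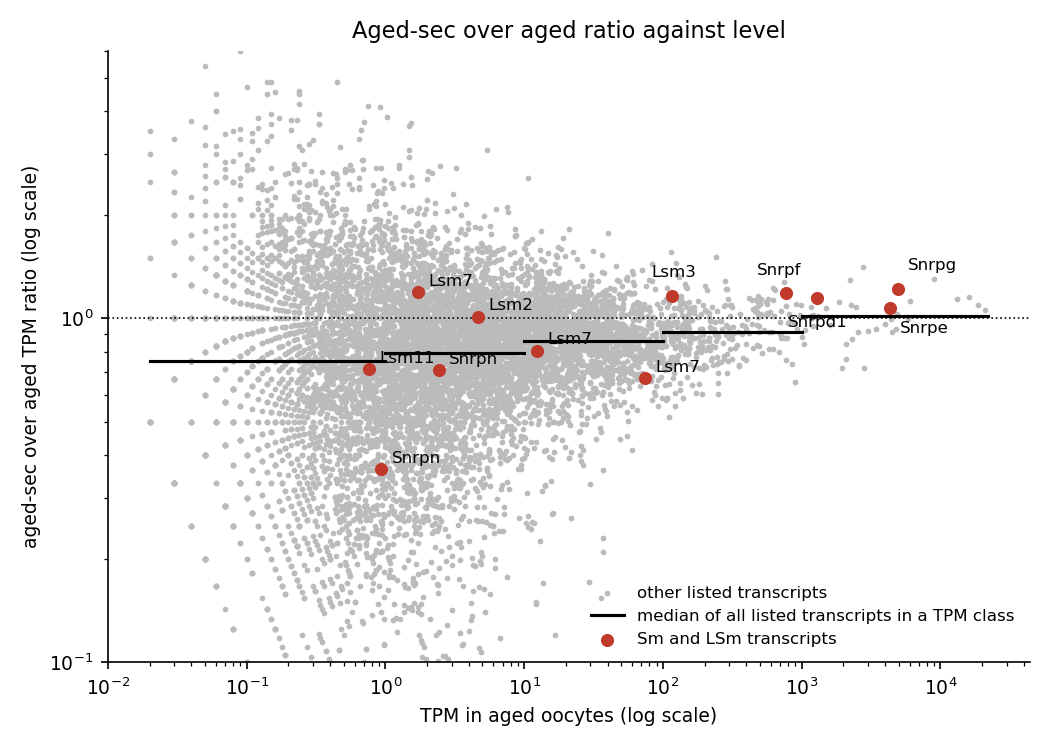
Aged-sec over aged TPM ratio against TPM in aged oocytes, both on log axes, for listed transcripts (grey, with 124 beyond the ratio axis) and Sm and LSm transcripts (red); black bars give the median of all listed transcripts in classes split at 1, 10, 100 and 1000 TPM, and the dotted line marks equal values. Snrpg, Snrpe, Snrpd1, Snrpf and Lsm3 lie above both the dotted line and the median of their class, and the Lsm7 variant at 74.5 TPM lies below both.

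Transcript length also moved with this ratio. Lengths came from the GENCODE M21 transcript paired with the accession, whose ends can differ from those of RefSeq, and were found for 287 of the 367 transcripts at 100 TPM or more and for 5 of the 5 members among them. The members were short, with 503 bases for Snrpe, 618 for Lsm3, 858 for Snrpd1, 861 for Snrpf and 1055 for Snrpg. Of the 31 transcripts under 800 bases 58.1% were higher in aged-sec, against 37.1% of the 89 from 800 to 1500 bases, 28.1% of the 96 from 1500 to 3000 bases and 21.1% of the 71 longer ones. Median ratios in these classes were 1.03, 0.930, 0.924 and 0.902, shortest class first. Among the 120 transcripts that were both under 1500 bases and at 100 TPM or more, 42.5% were higher in aged-sec, and Snrpg ranked 10 from the highest ratio, Snrpf 12, Lsm3 13, Snrpd1 16 and Snrpe 33. The part of length in the members' ratios was not tested.

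**Figure D3:**
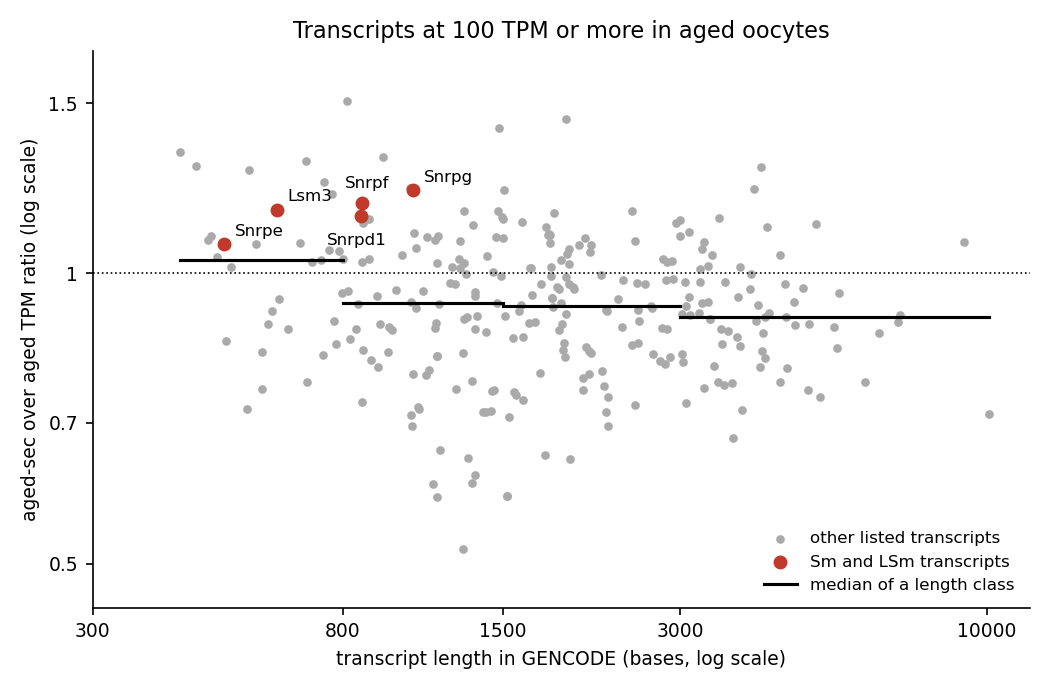
Aged-sec over aged TPM ratio against GENCODE transcript length in bases, both on log axes, for the 287 transcripts at 100 TPM or more in aged oocytes that had a length; red points are Sm and LSm transcripts, black bars the medians of 4 length classes, and the dotted line marks equal values. The 5 members are among the shorter transcripts, between 503 and 1055 bases, and lie above the median of their length class.

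These ratios depend on the scale to which the libraries are set. Scaling the libraries to equal medians over the listed transcripts moved the median log2 ratio of all listed transcripts, with no TPM added, by 0.29 for aged-sec over aged and by -0.79 for aged over young. The members' medians, with 0.5 TPM added, became 0.27 in place of 0.02 and -0.18 in place of 0.48. On that scale the log2 aged-sec over aged ratio of Snrpg was 0.58 in place of 0.29 and that of Snrpe 0.39 in place of 0.10. The scale rests on the listed rows alone, which were selected on the aged over young ratio. It is therefore not a neutral baseline for aged-sec over aged either. The aged over young ratio changed direction, to -0.42 for Snrpg and -0.31 for Snrpe. With no TPM added, both lay below the median of all listed transcripts in the size of the age excess, as did Snrpd1, Snrpf and Lsm3. With 0.5 TPM added on the deposited scale, Snrpe at 0.48 was level with that median, also 0.48, and the others stayed below it. Among the 82 transcripts at 500 TPM or more in aged oocytes the median aged over young ratio was 1.32, with Snrpe at 1.40 (rank 28 from the highest) and Snrpf at 1.35 (rank 36) above it and Snrpg at 1.30 (rank 47) and Snrpd1 at 1.21 (rank 80) below it. Since every listed row has that excess, this scaling removes it by construction. For aged-sec over aged, scaling turns ratios between 0.817 and 1, where no member lay, but among the transcripts named below it turns Phf5a, Prpf38a, Slbp, Casp8ap2 and Dcp1a to the higher side.

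Copies of these genes bear on how firmly the levels can be read. In GENCODE, transcripts of 3 annotated pseudogenes matched Snrpg over at least 200 bases at 90% identity or more, the nearest at 100%. Likewise 3 matched Snrpf, up to 98.8%, 2 matched Snrpe, up to 98.9%, and 1 matched Snrpd1, up to 97.8%, while none matched Lsm3, Lsm2 or Lsm11. Lsm7 and Snrpn were not searched. How the authors' quantification treated reads shared with such copies is unknown here, so the levels of Snrpg, Snrpf, Snrpe and Snrpd1 are uncertain to that extent.

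The machinery around the Sm ring was read from 6 further lists. Their counts and median ratios for aged-sec over aged stand beside 28.4% higher and a median of 0.818 over all listed transcripts, and with so few transcripts a list, counts such as 1 of 7, 3 of 13 or 4 of 12 are close to that share. Proteins that assemble and import the ring had 7 of 18 genes listed, 1 of 7 transcripts higher in aged-sec and 6 lower, with a median ratio of 0.875. Smn1, the gene for the survival motor neuron protein, was the one above, at 65.6 TPM in aged-sec, 62.4 TPM in aged and 42.4 TPM in young oocytes. Prmt5, which methylates Sm proteins before assembly, stood at 9.41 TPM in aged-sec, 13.8 TPM in aged and 9.93 TPM in young oocytes. The Snrpg, Snrpe, Snrpd1 and Snrpf mRNAs each stood higher than all listed mRNAs of assembly factors together, while Snrpn stood below both Smn1 and Prmt5. The assembly factors summed to 89.7 TPM in aged-sec, 94.8 TPM in aged and 62.2 TPM in young oocytes.

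Proteins of the U1 and U2 particles had 12 of 22 genes listed, with 10 of 18 transcripts higher in aged-sec and 8 lower, and a median ratio of 1.08. Of these 18 transcripts 6 were variants of Luc7l2, an alternative U1 component, and all 6 were on the higher side. Of them 2 met the size rule between aged-sec and young oocytes: NM_001170849, at 11.6 TPM in aged-sec, 10.03 TPM in aged and 5.31 TPM in young oocytes, and the predicted XM_030255227, at 12.7 TPM in aged-sec, 10.2 TPM in aged and 5.01 TPM in young oocytes. The most abundant of the list was Sf3b1, the branch point subunit of the U2 particle, at 189 TPM in aged-sec, 245 TPM in aged and 175 TPM in young oocytes. Phf5a, its small partner in the same complex, stood at 127 TPM in aged-sec, 142 TPM in aged and 101 TPM in young oocytes. Sf3b1 and Phf5a thus had aged-sec values below their aged ones, on the other side from the 4 Sm mRNAs, Phf5a on the deposited scale only.

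Proteins of the U4/U6 and U5 particles had 11 of 19 genes listed, with 4 of 12 transcripts higher in aged-sec and a median ratio of 0.804. Ppih, a cyclophilin of the U4/U6 particle, was the most abundant, at 580 TPM in aged-sec, 561 TPM in aged and 446 TPM in young oocytes. Prpf38a, a factor for activation of the spliceosome, stood at 43.3 TPM in aged-sec, 52.3 TPM in aged and 34.9 TPM in young oocytes. Proteins of the minor U11/U12 and the U7 particles, a list that includes Lsm11, had 8 of 13 genes listed, with 1 of 10 transcripts higher in aged-sec and a median ratio of 0.685. A predicted variant of Zcrb1, a minor spliceosome protein, was the higher one and met the size rule for aged over young and for aged-sec over young, at 15.5 TPM in aged-sec, 12.3 TPM in aged and 4.20 TPM in young oocytes. The most abundant was Slbp, the histone mRNA stem-loop binding protein, at 112 TPM in aged-sec, 132 TPM in aged and 94.5 TPM in young oocytes. Next came Casp8ap2, a protein of histone locus bodies, at 88.0 TPM in aged-sec, 101 TPM in aged and 73.7 TPM in young oocytes.

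Partners of the cytoplasmic LSm ring in mRNA decay had 7 of 11 genes listed, with 3 of 13 transcripts higher in aged-sec and a median ratio of 0.842. Edc4, the decapping scaffold, met the size rule on the lower side (NM_181594), at 6.67 TPM in aged-sec, 16.3 TPM in aged and 9.60 TPM in young oocytes. Dcp1a, a decapping activator, was listed only as a predicted variant, at 91.1 TPM in aged-sec, 100 TPM in aged and 55.0 TPM in young oocytes. Other proteins with an Sm-like domain had 3 of 8 genes listed, with 4 of 6 transcripts higher in aged-sec and a median ratio of 1.06. Of these only 2 reached 10 TPM in aged oocytes, with 1 of them higher in aged-sec and a median ratio of 0.875. The leading Lsm14a variant, a predicted one, of a translational repressor in messenger particles, stood at 29.2 TPM in aged-sec, 40.8 TPM in aged and 24.0 TPM in young oocytes. The other listed Lsm14a variant was slightly higher in aged-sec than in aged, at 28.15 TPM in aged-sec, 27.22 TPM in aged and 14.72 TPM in young oocytes. The leading variant of Atxn2l, a stress granule protein, was also a predicted one, at 4.20 TPM in aged-sec, 3.78 TPM in aged and 3.05 TPM in young oocytes. Over the 6 lists, with each transcript counted once, 1 of 27 with enough TPM met the size rule on the higher side for aged over young, against 18.2% of listed transcripts. For aged-sec over aged, 1 of 27 met it on the lower side, against 2.95%, and for aged-sec over young 3 of 24 on the higher side, against 17.1%. The lists share some genes, among them Lsm14a, and no list was tested against another.

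**Figure D4:**
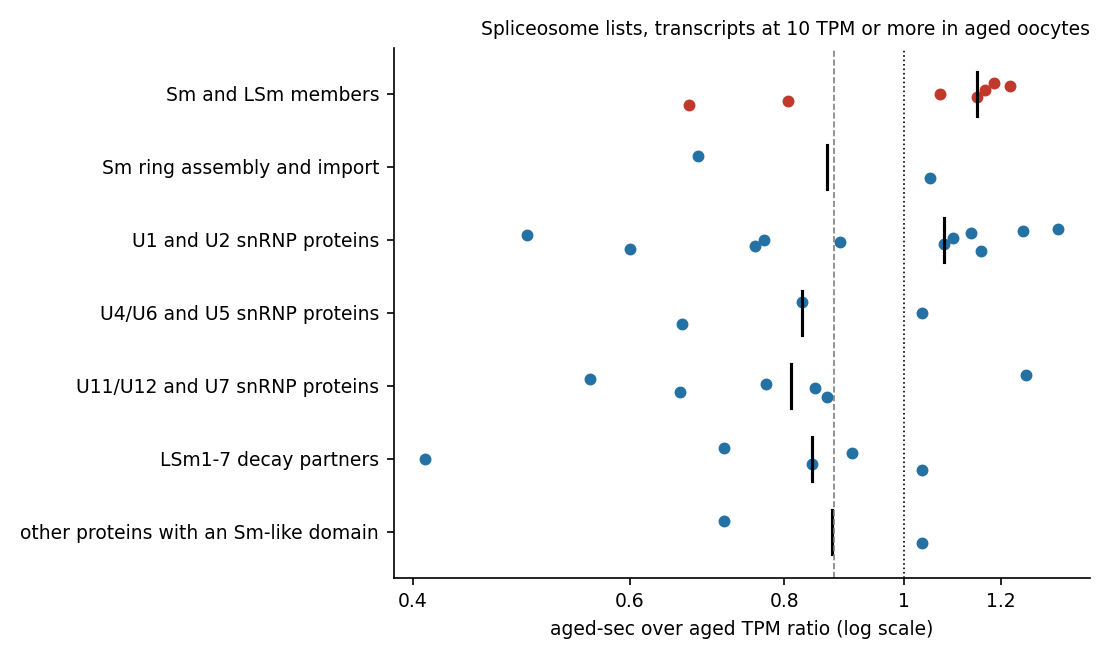
Aged-sec over aged TPM ratio on a log axis for transcripts at 10 TPM or more in aged oocytes, 1 row of points per list; black bars give list medians, the dashed line the median of 0.879 over the 2114 such listed transcripts, and the dotted line equal values. The Sm and LSm row has 5 points right and 2 left of the dotted line, and lists with few points carry little weight.

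Transcripts with a pattern like those of Snrpg and Snrpe were sought among 1113 curated transcripts of at least 10 TPM in every library, by the distance between their pairs of log2 ratios (aged over young and aged-sec over aged). The likeness therefore rests on 3 libraries. Nearest to Snrpg were Eif3e, a translation initiation subunit, at 346 TPM in aged-sec, 283 TPM in aged and 217 TPM in young oocytes, a variant of the hypoxia factor gene Hif1a at 54.1 TPM in aged-sec, 44.6 TPM in aged and 34.5 TPM in young oocytes, and the second copy of Tcl1b1, an oocyte gene of the Tcl1 family, at 131 TPM in aged-sec, 107 TPM in aged and 81.6 TPM in young oocytes. Nearest to Snrpe were Zcchc17, an RNA-binding protein gene, at 175 TPM in aged-sec, 164 TPM in aged and 117 TPM in young oocytes, Chst7, a sulfotransferase gene, at 16.5 TPM in aged-sec, 15.5 TPM in aged and 10.9 TPM in young oocytes, and a variant of the caspase regulator gene Cflar at 17.3 TPM in aged-sec, 16.2 TPM in aged and 11.5 TPM in young oocytes. Distances ran from 0.00441 for Zcchc17 to 0.0173 for Tcl1b1.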

How the data were processed

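The authors deposited 1 table of TPM per RefSeq transcript in each of 3 libraries, with 2 columns of each transcript's ratio, aged to young and aged-sec to aged, per the file headers. The table is titled as raw counts, but its values are not whole numbers. Dividing the TPM columns gave the deposited ratios to within 6.64e-07 of their size. Per the labels' protocols, cDNA was made by SMART-Seq2 and libraries by a transposon-based method. No source used here names the genome build, the aligner or the program for quantification. The table has 9126 rows and no zero; listed TPM made up 32.1% of the aged-sec, 32.5% of the aged and 22.9% of the young library. Precision is limited by 1 library per group, and depth is unknown from TPM.

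Deposited TPM were not rescaled. Log2 ratios had 0.5 TPM added to both values, which shrinks low ratios; ratios not called log2 have nothing added. The size rule asked for a log2 ratio of 1 or beyond in either direction and 10 TPM in the larger value; its code was tested on simulated data. Members, gene lists and rules were chosen with earlier results of these data known. All members are described; of other lists the text names up to 4 genes past the size rule and the 2 genes with the highest mean TPM. Lists used first copies only. Copies were sought with blastn 2.17.0, tables made with pandas 2.3.3. Alternatives were other added values (0.1 and 1 TPM), other minimums, scaling to equal medians, 1 row per accession, sums per symbol and curated transcripts.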

Additional observations from a re-analysis of the deposited data

How the results depend on the processing

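Counts of members under the size rule stayed at 0 in all 3 comparisons with 0.1 or 1 TPM added, scaling to equal medians, 1 row per accession, sums per symbol and curated transcripts only. With no minimum, or one of 1 TPM, the count became 3 for aged over young and 3 for aged-sec over young (both copies of Lsm2 and the Lsm7 variant NM_001359149, all under 10 TPM) and stayed at 0 for aged-sec over aged. The median log2 ratio of the members for aged over young, 0.48, was 0.54 with 0.1 TPM added, 0.44 with 1 TPM, 0.47 with 1 row per accession and 0.44 with sums per symbol. Under scaling to equal medians it reversed to -0.18, as did Snrpg (-0.42), Snrpe (-0.31), Snrpf (-0.35), Snrpd1 (-0.52) and Lsm3 (-0.43); that scaling sets the typical listed ratio to equality by construction. The median for aged-sec over aged, 0.02, was 0.27 under that scaling, 0.058 with 1 row per accession, 0.10 with sums per symbol and 0.10 with a minimum of 1 TPM. No paired analysis was possible because each group had 1 library, and no replicate could be left out.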
